A study of Gallus gallus with 6 samples.

Results

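Autophagy genes and cargo receptors were followed in the uterovaginal junction of breeder hens (Gallus gallus), the oviduct segment that holds the sperm storage tubules. Members were rows whose gene name is that of an ATG gene, an ATG8-family gene (MAP1LC3 or GABARAP), a ULK kinase, WIPI1 or WIPI2, a ubiquilin, or one of 12 further named genes of the pathway. The names gave 36 of the 20285 rows of the table, and all 36 had enough counts to be tested. WDR45 was on the list of names without a row of its own. A group of 3 libraries came from hens under heat stress at 36 °C for 6 h, and 3 libraries came from hens at a thermoneutral 23 °C. The labels give no other treatment, and neither strain nor age. Each library pooled the RNA of 4 hens, 24 hens in all, so a replicate is a pool and p-values measure the spread between pools.

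Macroautophagy encloses cytoplasm in a double membrane and delivers it to the lysosome. The ULK complex starts the process, a class III PI3-kinase complex marks the growing membrane with the lipid PI3P, and lipid transfer proteins extend it. A ubiquitin-like conjugation system then couples ATG8 proteins to the membrane, where cargo receptors such as SQSTM1 (p62) bind them and ubiquitylated cargo at the same time. Ubiquilins and the ATPase VCP handle ubiquitylated proteins for the proteasome as well as for autophagy.

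Library totals ran from 23944263 to 29502991 counts under heat stress and from 23438814 to 24959902 in thermoneutral hens. Of the members, 35 had at least 10 CPM (read counts per library size, with sizes scaled by the trimmed mean of M values, TMM) in every library. The exception was MAP1LC3C, at 0.688 to 1.28 CPM. Markers of epithelium, ciliated cells and smooth muscle were present in every library, and none of these 17 tested markers was called. Of 6 fibroblast markers, 2 fell, PDGFRA and LUM, with log2 changes of −0.43 and −0.35, where 9.52% of all genes tested were called lower. The other 4 did not pass, and the median log2 change of the 6 was −0.23. Summed over 7 smooth muscle markers, the level was 4951 to 6639 CPM under heat stress and 5167 to 8228 CPM in thermoneutral hens, and over 5 macrophage markers it was 63.6 to 84.1 CPM under heat stress and 109 to 129 CPM in thermoneutral hens. In tissue RNA, fewer cells of a type and less RNA per cell cannot be told apart. On the first principal component of all genes, heat stress replicate 1 scored −10.9, between the other heat stress libraries at −44.1 and −37.1 and the thermoneutral libraries at 27.1 to 33.7.

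Of the 36 members, 7 were higher under heat stress, 0 were lower and 29 did not pass (edgeR quasi-likelihood test, Benjamini-Hochberg adjusted p under 0.05 over 15655 genes). The 7 were SQSTM1, UBQLN1, RB1CC1, ATG2B, ATG13, ATG4C and WIPI2. They made up 19.4% of the members, where 10.2% of all genes tested were called higher and 9.52% lower. The members were chosen with earlier results of these data known, so this share is a description without a test. Only SQSTM1 changed by 2-fold or more. At an unadjusted p under 0.05 there were 12 higher members and 1 lower member, VCP. No share of all genes was taken at that threshold, so these counts have no baseline. The median log2 change was 0.05 over the members and −0.01 over all genes tested. All heat stress libraries lay above all thermoneutral libraries in 13 members (36.1%, against 21.5% of all genes) and below them in 2 members (5.56%, against 21% of all genes).

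The count of higher members changed when single libraries were left out, in fits that also had fewer libraries to test with. Leaving out heat stress replicate 1, 2 or 3 gave 7, 4 or 2 higher members, and leaving out thermoneutral replicate 1, 2 or 3 gave 5, 2 or 4. The calls over all genes moved as well, with 12.7%, 4.91% and 0.908% of all genes called higher without heat stress replicates 1, 2 and 3, and 5.48%, 1.12% and 3.55% without thermoneutral replicates 1, 2 and 3. ATG2B and RB1CC1 passed in each of these 6 fits, RB1CC1 with an adjusted p of up to 0.0499. By DESeq2, 8 members were higher and 1 lower, beside 13.1% and 12.5% of all genes, and by limma-voom 7 and 0, beside 9.64% and 9.51%. Upper-quartile scaling gave 6 and 1, beside 8.08% and 11.4%, and a stricter filter on low counts 7 and 1, beside 12% and 12.7%. With a block on the replicate number 5 were higher and 0 lower, beside 8.25% and 9.14%.

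**Figure D1:**
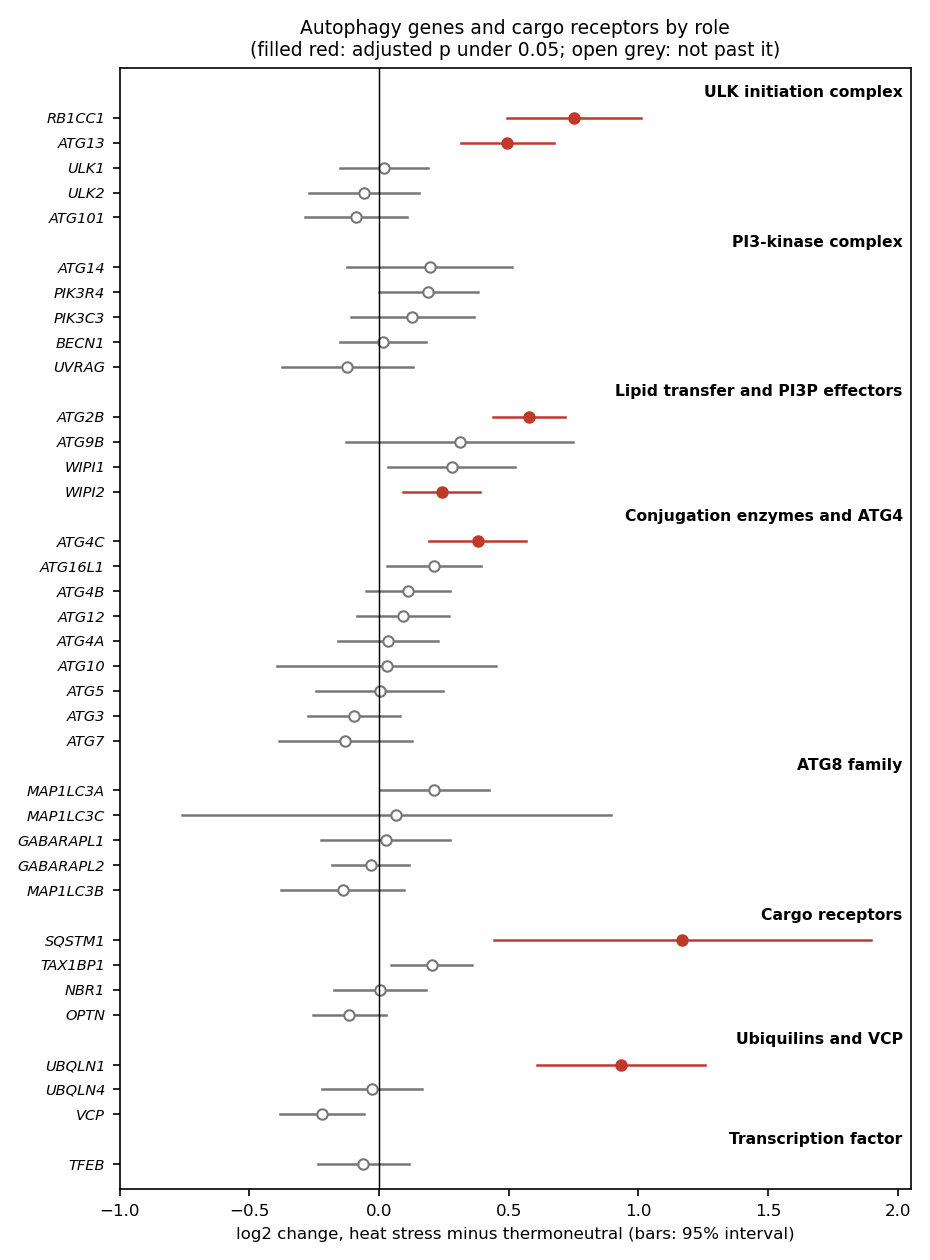
Log2 change of each of the 36 genes (x axis, heat stress minus thermoneutral) with its 95% interval, in blocks by role. The 7 filled points passed the threshold and all lie right of 0, from 0.24 for WIPI2 to 1.17 for SQSTM1.

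In the ULK initiation complex, RB1CC1 and ATG13 rose, and ULK1, ULK2 and ATG101 did not pass. RB1CC1 (FIP200), the large scaffold of the complex (GRCg6a chr2:109935359-110008388, minus strand), had 138, 103 and 114 CPM under heat stress and 74.7, 69.1 and 66.8 CPM in thermoneutral hens. The groups did not overlap, and RB1CC1 rose by a log2 change of 0.75 (SE 0.11, adjusted p = 0.0102), 1.68-fold. ATG13, the adaptor that links the kinase to RB1CC1 (chr5:23721124-23734856, minus strand), had 92.4, 87.7 and 90.8 CPM under heat stress and 69.3, 64.0 and 58.8 CPM in thermoneutral hens. It rose 1.41-fold (log2 change 0.50, SE 0.08, adjusted p = 0.0108), with the heat stress libraries close together, and its adjusted p was 0.0532 without heat stress replicate 3 and 0.052 without thermoneutral replicate 2. The kinases did not pass. ULK1 had 40.0, 37.9 and 37.9 CPM under heat stress and 39.4, 37.0 and 37.9 CPM in thermoneutral hens, with a 95% interval of its log2 change from −0.15 to 0.19. ULK2 (log2 change −0.06, interval −0.27 to 0.15) and ATG101, which stabilises ATG13 (−0.09, interval −0.29 to 0.11), also had overlapping groups. The FPKM ratio of RB1CC1 to ULK1, a ratio of levels per length, was 2.44 ± 0.29 under heat stress and 1.47 ± 0.06 in thermoneutral hens (mean ± SD, n = 3 libraries each). This ratio and the shares and ratios of FPKM below were chosen with the values known and are descriptions without a test, so no difference between paralogs or partners was tested.

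None of the 5 members of the PI3-kinase complexes passed. Their log2 changes ran from −0.12, for UVRAG, a subunit of the endosomal form of the complex, to 0.19, for ATG14, the subunit that directs the complex to autophagosome formation. BECN1 (beclin 1), the core regulatory subunit, had 69.0, 61.8 and 63.9 CPM under heat stress and 65.8, 62.8 and 64.3 CPM in thermoneutral hens. Its groups overlapped, and the 95% interval ran from −0.15 to 0.18. PIK3R4, the pseudokinase subunit that anchors the complex, had 48.2, 43.4 and 49.8 CPM under heat stress, all above the 41.7, 39.6 and 42.6 CPM of thermoneutral hens, and did not pass (log2 change 0.19, SE 0.08, adjusted p = 0.135). PIK3C3, the catalytic subunit, had a log2 change of 0.13 (adjusted p = 0.402).

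Among genes that extend the membrane or read PI3P, ATG2B, a lipid transfer protein that bridges the endoplasmic reticulum and the growing membrane (chr5:46604362-46646278, minus strand), had the smallest p of all members. It had 87.2, 86.5 and 85.7 CPM under heat stress and 57.0, 58.8 and 57.8 CPM in thermoneutral hens. The libraries within each group were almost identical, and ATG2B rose 1.49-fold (log2 change 0.58, SE 0.06, adjusted p = 0.00738). Its row shares 152 bases with GSKIP on the opposite strand, and the counting's strand setting is not stated in the sources at hand. WIPI2, the PI3P reader that recruits ATG16L1 (chr14:4448200-4469037, plus strand), had 89.7, 91.3 and 89.5 CPM under heat stress and 80.0, 74.4 and 74.3 CPM in thermoneutral hens. It rose 1.18-fold (log2 change 0.24, SE 0.06, adjusted p = 0.0363), a small change that passed only without heat stress replicate 1 when single libraries were left out. The adjusted p was 0.0888 and 0.104 without heat stress replicates 2 and 3, and 0.0534, 0.13 and 0.102 without thermoneutral replicates 1, 2 and 3. With upper-quartile scaling it was 0.0599 and with the replicate block 0.0695.

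The paralog WIPI1 had 51.8, 60.8 and 55.8 CPM under heat stress and 47.0, 40.7 and 50.9 CPM in thermoneutral hens. Its groups did not overlap either, and its log2 change of 0.28 had a wider error (SE 0.11, adjusted p = 0.0977). ATG9B, a lipid scramblase of vesicles that seed the membrane, was variable, with 21.4, 20.8 and 16.8 CPM under heat stress and 14.4, 12.9 and 20.3 CPM in thermoneutral hens (adjusted p = 0.27). A row with no symbol, which the table describes as ATG9A and which is therefore not among the 36, had 95.9, 99.7 and 84.5 CPM under heat stress against 73.9, 78.7 and 83.6 CPM in thermoneutral hens (log2 change 0.25, SE 0.09, adjusted p = 0.0807).

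**Figure D2:**
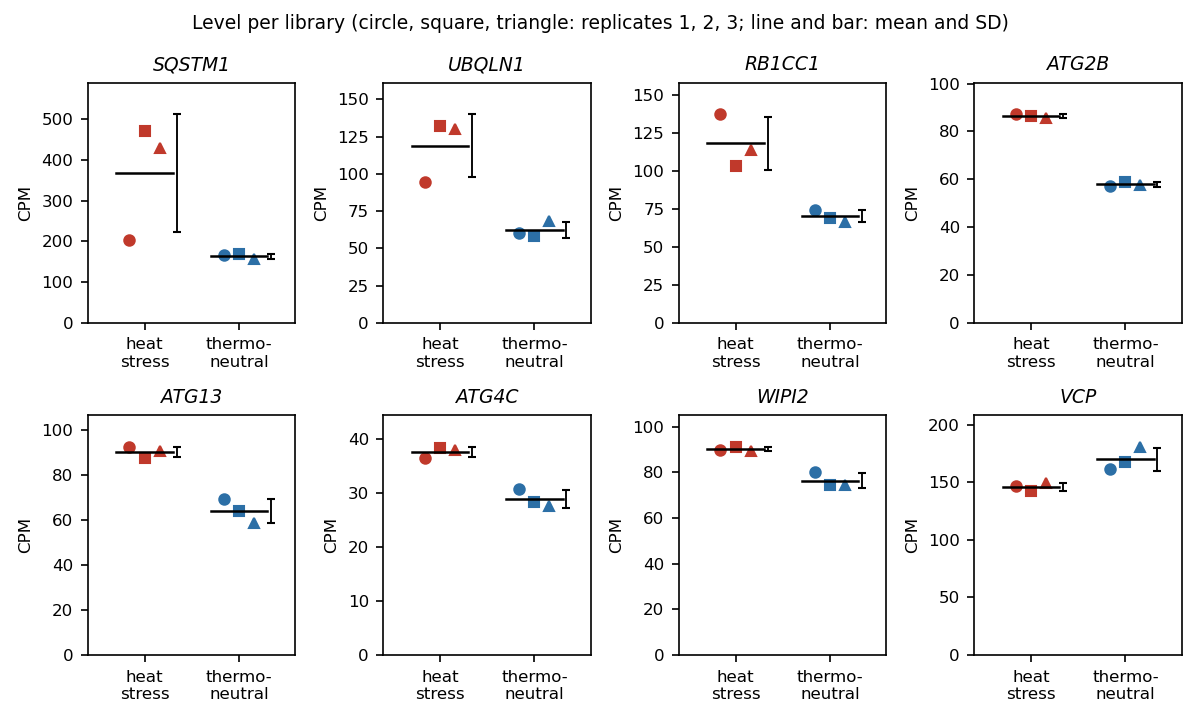
CPM (y axis, from 0) in each library for the 7 genes that rose and for VCP, with heat stress left and thermoneutral right in each panel (horizontal lines are means and bars are SDs of 3 libraries). The heat stress libraries of ATG2B sit between 85.7 and 87.2 CPM, whereas those of SQSTM1 spread from 204 to 472 CPM.

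Of the 9 genes for conjugation of ATG8 proteins to the membrane and for their processing, ATG4C rose and 8 did not pass, a share close to the 10.2% of all genes called higher. ATG4C, a protease of the ATG4 family, which trims and releases ATG8 proteins (chr8:27947422-27969461, plus strand), had 36.5, 38.4 and 37.9 CPM under heat stress and 30.8, 28.3 and 27.6 CPM in thermoneutral hens. It rose 1.30-fold (log2 change 0.38, SE 0.08, adjusted p = 0.0198). Its adjusted p was 0.0544 and 0.0741 without heat stress replicates 2 and 3, and 0.0764 and 0.0622 without thermoneutral replicates 2 and 3. The paralogs ATG4A and ATG4B, of which ATG4B was the most abundant per length, had log2 changes of 0.03 (interval −0.16 to 0.23) and 0.11 (interval −0.05 to 0.27). ATG4C made up 33.3% ± 0.821 of the summed FPKM of these paralogs and itself under heat stress and 28.9% ± 1.93 in thermoneutral hens (mean ± SD, n = 3). ATG4D is not among the 36 members.

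ATG7, the E1-like enzyme, ATG3 and ATG10, the E2-like enzymes, and ATG5 and ATG12, the conjugate that acts as an E3 with ATG16L1, had log2 changes from −0.13 to 0.09, and their groups overlapped. ATG12 had 42.6, 46.2 and 48.4 CPM under heat stress and 43.1, 42.7 and 42.9 CPM in thermoneutral hens. ATG16L1, which places the conjugation complex on the membrane, had 32.6, 33.1 and 34.6 CPM under heat stress, all above the 27.9, 28.2 and 30.4 CPM of thermoneutral hens. It did not pass (log2 change 0.21, SE 0.08, adjusted p = 0.094).

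No ATG8-family gene passed. Per length, MAP1LC3B, MAP1LC3A and GABARAPL2 ranked within the first 4 members in both groups, and MAP1LC3C ranked last. MAP1LC3B, whose row the table describes as MAP1LC3B2, had 158, 123 and 130 FPKM under heat stress and 165, 148 and 173 FPKM in thermoneutral hens. Its groups overlapped (log2 change of CPM −0.14, SE 0.10, adjusted p = 0.35). MAP1LC3A had 95.8, 115 and 93.9 CPM under heat stress, all above the 86.8, 85.0 and 90.9 CPM of thermoneutral hens, and did not pass (log2 change 0.21, SE 0.09, adjusted p = 0.134). Its row lies over 6432 bases of MMP24 on the same strand. GABARAPL2 and GABARAPL1 had log2 changes of −0.03 (interval −0.18 to 0.12) and 0.03 (interval −0.22 to 0.28). MAP1LC3C was too low for a narrow estimate, with an interval from −0.76 to 0.89. MAP1LC3B made up 35.5% ± 2.93 of the summed FPKM of these 5 genes under heat stress and 39.2% ± 0.797 in thermoneutral hens. MAP1LC3A made up 29.3% ± 3.40 of this sum under heat stress and 25.3% ± 0.730 in thermoneutral hens (mean ± SD, n = 3). GABARAP itself is not among the 36 members, so these are not shares of the whole family.

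**Figure D3:**
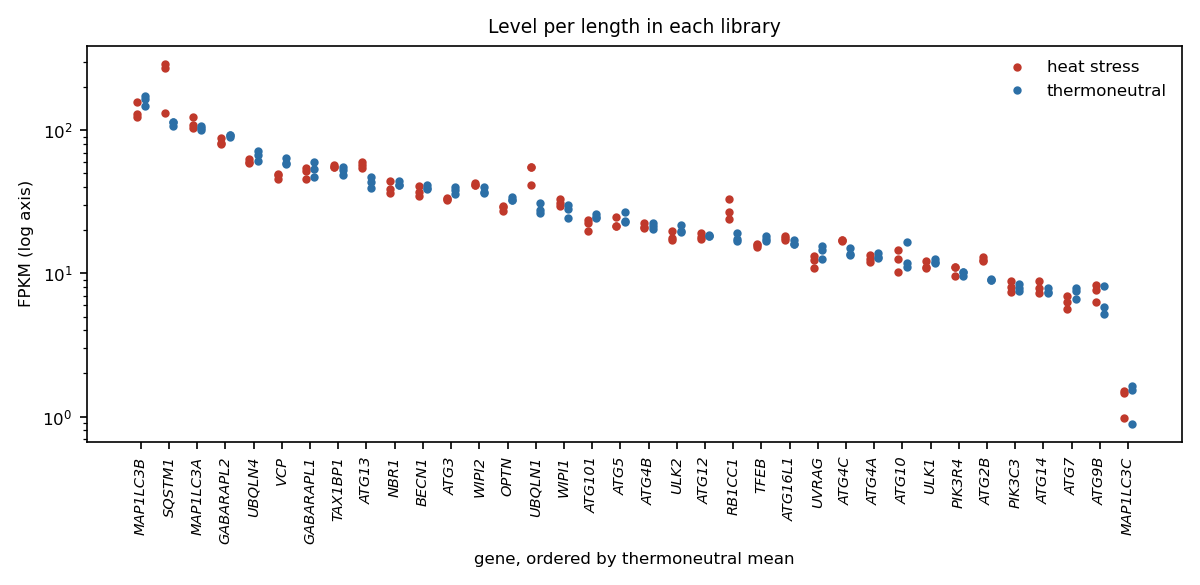
FPKM (y axis, log scale) of each gene in each library, heat stress left of thermoneutral, in order of the thermoneutral mean. SQSTM1 averaged 232 FPKM under heat stress and 112 FPKM in thermoneutral hens, and MAP1LC3C is the lowest in both groups.

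Levels per length spanned a wide range, from 162 ± 12.7 FPKM for MAP1LC3B to 1.35 ± 0.405 FPKM for MAP1LC3C in thermoneutral hens (mean ± SD, n = 3). The median member had 22.8 FPKM there, against 12.1 FPKM for all genes tested. SQSTM1 held the top rank under heat stress, at 232 ± 87.1 FPKM ahead of MAP1LC3B at 137 ± 18.2 FPKM, and rank 2 in thermoneutral hens, at 112 ± 4.33 FPKM. With the spread of SQSTM1 under heat stress, these first ranks there were not separate: heat stress replicate 1 had 133 FPKM of SQSTM1 and 158 FPKM of MAP1LC3B. UBQLN1 ranked 9 under heat stress and 15 in thermoneutral hens, and RB1CC1 ranked 17 under heat stress and 22 in thermoneutral hens. The deposited FPKM use unscaled library totals, and TMM factors were 0.945 to 0.989 under heat stress and 1.03 to 1.04 in thermoneutral hens, so an FPKM comparison between groups runs slightly lower under heat stress than one of CPM.

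Of the cargo receptors, SQSTM1 changed and its relatives did not pass. SQSTM1 (chr13:14167413-14171830, minus strand) had 204, 472 and 429 CPM under heat stress and 166, 168 and 157 CPM in thermoneutral hens. The thermoneutral libraries were close together, heat stress replicate 1 lay just above them, and replicates 2 and 3 were over 400 CPM. SQSTM1 rose 2.25-fold (log2 change 1.17, SE 0.30, adjusted p = 0.0418), the largest change and the widest error among the 7. The log2 change was 1.48 (adjusted p = 0.000227) without heat stress replicate 1. Without heat stress replicates 2 and 3 it was 0.96 and 1.05 (adjusted p = 0.102 and 0.12), and without thermoneutral replicates 1, 2 and 3 it was 1.18, 1.19 and 1.14 (adjusted p = 0.111, 0.114 and 0.113). The call was also lost with no filter on low counts (adjusted p = 0.0724) and with the replicate block (adjusted p = 0.0793).

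NBR1, a receptor built like SQSTM1, had 145, 134 and 124 CPM under heat stress and 138, 132 and 132 CPM in thermoneutral hens. Its change was near 0 (log2 change 0.00, interval −0.17 to 0.18). The FPKM ratio of SQSTM1 to NBR1 was 3.01, 7.58 and 7.43 in heat stress replicates 1, 2 and 3, above the 2.58, 2.74 and 2.55 of thermoneutral replicates 1, 2 and 3. SQSTM1 made up 63.4% ± 11.4 of the summed FPKM of the receptors under heat stress and 46.5% ± 1.31 in thermoneutral hens. TAX1BP1, a receptor that also binds ubiquitylated aggregates, had 186, 187 and 183 CPM under heat stress, all above the 169, 152 and 163 CPM of thermoneutral hens. It did not pass (log2 change 0.20, SE 0.07, adjusted p = 0.0717), and passed by DESeq2 alone (adjusted p = 0.0423, and 0.0699 to 0.225 in the other alternatives). OPTN, a receptor known from mitophagy, had 82.1, 79.2 and 82.6 CPM under heat stress, all below the 90.1, 87.1 and 87.0 CPM of thermoneutral hens, and did not pass (log2 change −0.12, SE 0.06, adjusted p = 0.208).

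Of the ubiquilins, UBQLN1 rose and UBQLN4 did not pass. UBQLN1, which shuttles ubiquitylated proteins to the proteasome and also binds ATG8 proteins (chrZ:39993578-40023005, minus strand), had 94.3, 132 and 130 CPM under heat stress and 60.2, 58.2 and 68.3 CPM in thermoneutral hens. The groups lay well apart, with heat stress replicate 1 the lowest of its group, and the log2 change was 0.93 (SE 0.14, adjusted p = 0.0104). Without heat stress replicate 3 the adjusted p was 0.0511 and without thermoneutral replicate 2 it was 0.0509. UBQLN4, the more abundant paralog per length, had 174, 194 and 181 CPM under heat stress and 200, 171 and 188 CPM in thermoneutral hens, and these groups overlapped (log2 change −0.03, interval −0.22 to 0.16). UBQLN1 made up 45.1% ± 3.67 of the summed FPKM of both under heat stress and 29.9% ± 1.97 in thermoneutral hens (mean ± SD, n = 3).

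VCP (p97), the ATPase that extracts ubiquitylated proteins and takes part in the clearance of damaged lysosomes (chrZ:8540925-8562119, minus strand), had 146, 142 and 149 CPM under heat stress and 162, 167 and 181 CPM in thermoneutral hens. All heat stress libraries were lower, and the log2 change of −0.22 (SE 0.07) did not pass (adjusted p = 0.0614). It passed with upper-quartile scaling (adjusted p = 0.0399), the stricter filter (0.0408) and DESeq2 (0.0332), and its adjusted p ran from 0.0793 to 0.177 with single libraries left out. TFEB, the transcription factor known for driving lysosome and autophagy genes, had 36.1, 37.1 and 35.3 CPM under heat stress and 36.1, 39.3 and 37.8 CPM in thermoneutral hens. Its RNA level did not pass (log2 change −0.06, interval −0.23 to 0.11).

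**Figure D4:**
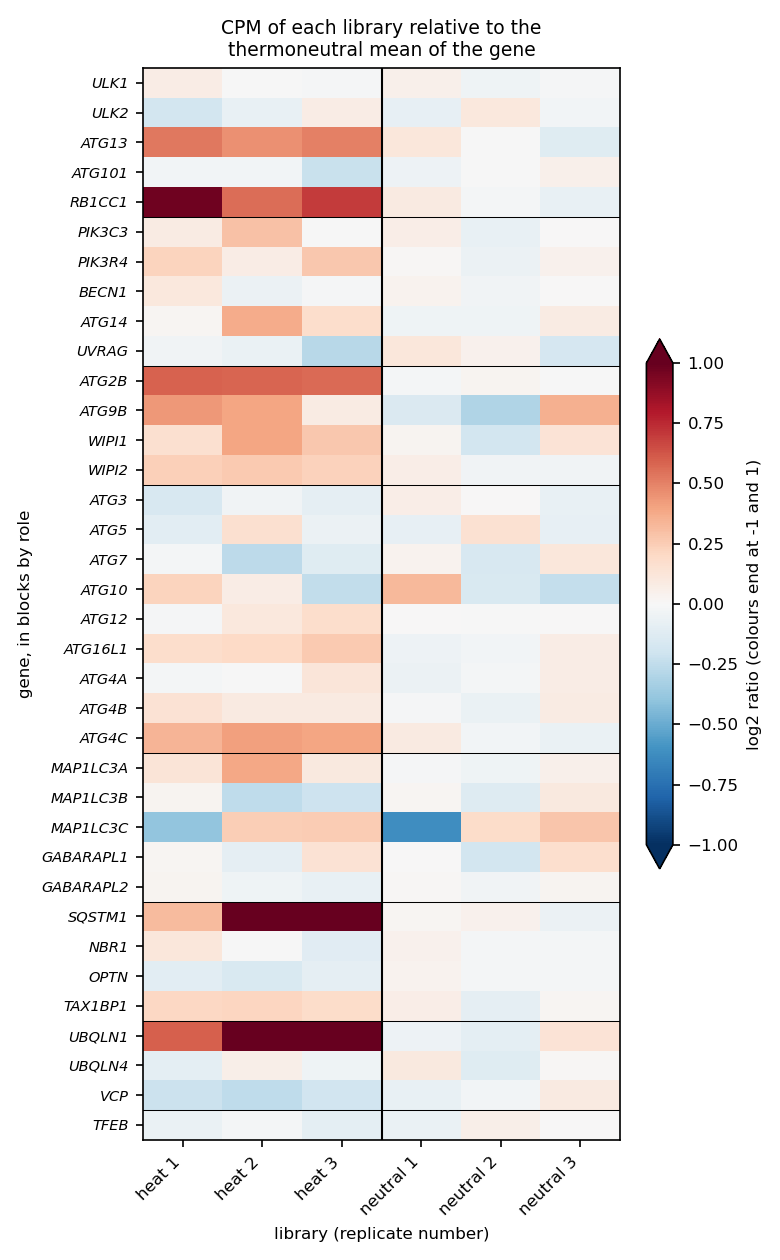
Log2 ratio of each library's CPM to the thermoneutral mean of the gene (colour), with genes in rows by role and heat stress libraries left of thermoneutral ones. RB1CC1 is strongest in heat stress replicate 1, and SQSTM1 and UBQLN1 in replicates 2 and 3.

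The 29 members that did not pass had log2 changes from −0.22 to 0.31. For 25 of them the 95% interval lay within −0.5 and 0.5, that is, within a 1.41-fold change either way. The exceptions were ATG9B, ATG14, WIPI1 and MAP1LC3C. Over all members it was 26 of 36 (72.2%), where 37.1% of all genes tested had such an interval. These shares were not matched for level: the median was 22.8 FPKM over members and 12.1 FPKM over all genes tested, in thermoneutral hens. Among these 29, WIPI1, ATG9B, ATG12, ATG4A, GABARAPL2, BECN1 and UBQLN4 each share bases with a gene on the opposite strand whose mean count is over 10% of their own, so their values are less certain if strand was not used in counting.

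The heat stress libraries did not rank alike for all 7 genes. Replicate 1 was the lowest heat stress library for SQSTM1, UBQLN1 and ATG4C (3 of 7), and the highest for RB1CC1, ATG2B and ATG13 (3 of 7). For ATG4C, ATG2B and ATG13 these ranks were near ties. Their highest heat stress library was 1.05, 1.02 and 1.05 times the lowest in CPM. Of all 1602 genes called higher, replicate 1 was lowest in 65.3% and highest in 15.4%, and replicate 2 was highest in 46.4%. For HSP90AA1, the inducible HSP90 chaperone, heat stress replicates 1, 2 and 3 had 7760, 17130 and 14781 CPM. Thermoneutral hens had 1810 to 2167 CPM. The order of the heat stress libraries was that of SQSTM1 and UBQLN1, and a link between these genes was not tested. BAG3, the co-chaperone that works with SQSTM1 in chaperone-assisted autophagy, had 610, 2950 and 2458 CPM in heat stress replicates 1, 2 and 3, against 145 to 155 CPM in thermoneutral hens. In the reference list of chaperone-assisted autophagy and heat response, 6 of 8 genes were higher and 1, SYNPO2, was lower (median log2 change 2.78). Higher genes of this list numbered 6, 5 and 2 without heat stress replicates 1, 2 and 3 and 2, 2 and 3 without thermoneutral replicates 1, 2 and 3. The call of SYNPO2 held only without thermoneutral replicate 1 among these fits, and was lost with the replicate block.

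Neighbouring pathway lists were read from the same fit, by their counts and medians, beside the 10.2% of all genes called higher and 9.52% called lower. Those shares are at the adjusted threshold. Calls over all genes also fell in most fits with 1 library left out, against 1602 higher and 1490 lower in the main fit. Over all genes, 2027, 783 and 145 were higher and 1672, 689 and 154 lower without heat stress replicates 1, 2 and 3. Without thermoneutral replicates 1, 2 and 3 the counts were 872, 178 and 563 higher and 814, 222 and 656 lower. The lists were chosen with earlier results of these data known and were not matched for level, so their shares are descriptions without a test. The list counts at an unadjusted p under 0.05 have no share of all genes beside them and are descriptions only. Of 18 other tested genes of autophagosome formation and its control, 5 were higher (27.8%) and 0 lower (median log2 change 0.22). SMCR8, a partner of C9ORF72, and NRBF2, a regulator of the PI3-kinase complex, rose 1.46-fold and 1.41-fold, and AMBRA1, which promotes the activity of ULK and beclin 1 complexes, 1.22-fold. TMEM41B, a scramblase of the endoplasmic reticulum, rose 1.23-fold. The count was 3, 1 and 0 without heat stress replicates 1, 2 and 3 and 0, 0 and 1 without thermoneutral replicates 1, 2 and 3. It was 2 with upper-quartile scaling and 3 with the replicate block. At an unadjusted p under 0.05, 7 were higher and 1 lower, and both DESeq2 and limma-voom called 5 higher and 0 lower.

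Of 22 other tested genes of selective autophagy, 5 were higher (22.7%) and 0 lower (median 0.12). WDFY3 (ALFY), the adaptor that brings SQSTM1-bound aggregates to the autophagy machinery, had 171, 175 and 180 CPM under heat stress and 111, 108 and 93.4 CPM in thermoneutral hens. It rose 1.69-fold (log2 change 0.75, SE 0.08, adjusted p = 0.00738) and passed whichever library was left out. The mitophagy receptors BCL2L13 and BNIP3 rose 1.44-fold and 1.24-fold, and TOLLIP, a receptor for ubiquitylated proteins, 1.33-fold. The count was 5, 3 and 1 without heat stress replicates 1, 2 and 3, 3, 1 and 2 without thermoneutral replicates 1, 2 and 3, and 3 with upper-quartile scaling. At an unadjusted p under 0.05, 9 were higher and 2 lower, and DESeq2 called 7 higher and 0 lower, limma-voom 5 and 0. CALCOCO2 of this list had all heat stress libraries below all thermoneutral ones and did not pass (log2 change −0.23, adjusted p = 0.0893).

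Although VCP itself did not pass, 8 of 27 tested VCP cofactors and ubiquitin shuttles were higher (29.6%) and 0 lower (median 0.10). HERPUD1, a part of endoplasmic reticulum associated degradation, rose 1.58-fold, and DDI2, a proteasome shuttle and protease, 1.38-fold. VCPIP1, a deubiquitinase that binds VCP, rose 1.32-fold. The core cofactor pair UFD1 and NPLOC4 had log2 changes of −0.00 and −0.03. The count was 9, 4 and 1 without heat stress replicates 1, 2 and 3, 4, 1 and 2 without thermoneutral replicates 1, 2 and 3, and 5 with the replicate block. At an unadjusted p under 0.05, 11 were higher and 1 lower, and DESeq2 called 9 higher and 0 lower, limma-voom 8 and 0.

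Of 20 tested genes for fusion of autophagosomes with the lysosome, 5 were higher and 4 lower (25% and 20% of the list, median −0.04). VPS16 and VPS11, subunits of the HOPS tether, fell to 58.9 ± 6.68 and 41.9 ± 5.75 CPM under heat stress, against 89.6 ± 3.43 and 64.0 ± 1.09 CPM in thermoneutral hens (mean ± SD, n = 3), while VPS18 of the same complex rose 1.28-fold. The HOPS subunits VPS33A, VPS39 and VPS41 did not pass (log2 changes −0.06, 0.07 and −0.17). SNAP29, a SNARE of this fusion step, rose 1.28-fold, and PLEKHM1, a HOPS adaptor, fell (log2 change −0.41). The counts of higher and lower genes were 6 and 5, 2 and 3, and 0 and 0 without heat stress replicates 1, 2 and 3, and 5 and 4, 0 and 1, and 0 and 2 without thermoneutral replicates 1, 2 and 3.

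Of 39 tested lysosomal membrane proteins and hydrolases, 0 were higher and 6 lower (15.4% of the list, median 0.01). At an unadjusted p under 0.05, 6 were higher and 7 lower, and DESeq2 called 4 higher and 6 lower, limma-voom 1 and 6. ACP5, an acid phosphatase known from osteoclasts and macrophages, fell to 2.94 ± 0.318 CPM under heat stress, against 6.11 ± 0.734 CPM in thermoneutral hens. CTSO, a cysteine cathepsin, had a log2 change of −0.64. SGSH and MANBA, which break down heparan sulfate and oligosaccharides, had log2 changes of −0.43 and −0.59. Without heat stress replicate 1 these 3 still passed, and each failed when any other single library was left out. LAMP1, the main lysosomal membrane protein, had 933, 959 and 884 CPM under heat stress, all above the 783, 775 and 793 CPM of thermoneutral hens, and did not pass (adjusted p = 0.0566). Of 5 tested macrophage markers, 3 fell as well, the complement genes C1QA, C1QB and C1QC, and 2 did not pass. Over all genes, 9.52% were called lower. C1QC had 7.27 ± 1.29 CPM under heat stress and 14.5 ± 1.33 CPM in thermoneutral hens. The part of macrophages in the lysosomal falls was not tested. Lower genes of the list numbered 5, 3 and 0 without heat stress replicates 1, 2 and 3 and 1, 0 and 1 without thermoneutral replicates 1, 2 and 3, and 2 were higher without heat stress replicate 1.

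Of 35 tested genes of mTORC1, AMPK and nutrient signalling, which set the activity of the ULK complex, 3 were higher and 4 lower (8.57% and 11.4%, near the shares over all genes, median 0.07). RPS6KB1, the S6 kinase, and FNIP2, a partner of folliculin, rose 1.30-fold and 1.34-fold. CAMKK2, a kinase that activates AMPK, fell to 67.8 ± 3.76 CPM under heat stress, against 108 ± 19.4 CPM in thermoneutral hens, and TBC1D7, a subunit of the TSC complex, fell by 0.84 on the log2 scale. MTOR itself had a log2 change of −0.15 (adjusted p = 0.185). The counts of higher and lower genes were 6 and 5, 2 and 2, and 0 and 0 without heat stress replicates 1, 2 and 3, and 1 and 2, 0 and 1, and 2 and 1 without thermoneutral replicates 1, 2 and 3. Of 15 tested transcription factors linked to autophagy or lysosome genes, 3 were higher and 1 lower (20% and 6.67%, median 0.02). MLX, ATF4 and PPARA rose 1.31-fold, 1.43-fold and 1.73-fold, and HIF1A had a log2 change of −0.26. Higher factors numbered 3, 1 and 0 without heat stress replicates 1, 2 and 3 and 2, 0 and 1 without thermoneutral replicates 1, 2 and 3. Among these fits with 1 library left out, HIF1A passed only without heat stress replicate 1. Its call was also lost with the replicate block.

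**Figure D5:**
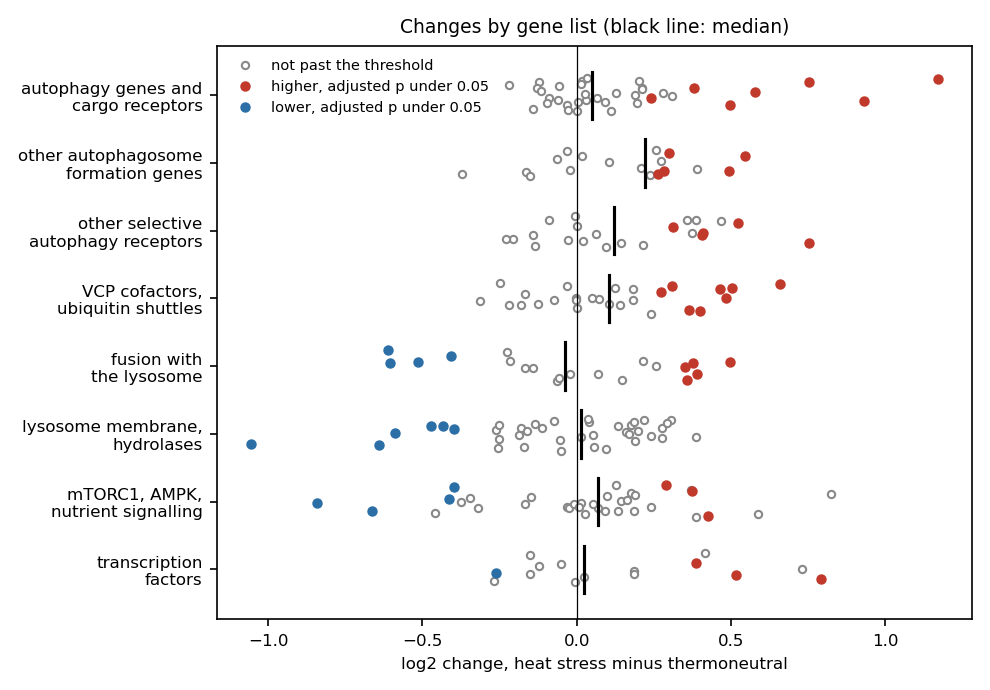
Log2 change (x axis, heat stress minus thermoneutral) of each tested gene in the 36 members and in 7 neighbouring lists (rows), with the median as a black line. Falls past the threshold are in the lists of fusion, lysosome, nutrient signalling and transcription factors, and none is among the 36 members.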

How the data were processed

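RNA-seq of 6 libraries was read from 1 deposited table. Its counts are raw whole read counts per gene, made by the authors with fastp, HISAT2 2.0.5 and featureCounts 1.5.0-p3 on GRCg6a, per the submitters' processing notes. The authors deposited FPKM values beside them, used here only for levels per length. No annotation release, strand setting or read filter is stated in the sources at hand. Of the members, 10 overlap another row on the genome.

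Members and lists were chosen with earlier results of these data known. For lists, 690 rows without a symbol took one from RefSeq (GRCg7b) through the NCBI gene number, for names only. The fit over all genes used edgeR 4.0.16 in R 4.3.3 (filterByExpr by group, TMM, robust quasi-likelihood fit, no covariate) with Benjamini-Hochberg adjustment at 0.05. SE is the absolute log2 change over the square root of F, and the 95% interval uses the t distribution with the fit's degrees of freedom. Named were each member that passed and, from each list, up to 4 genes that passed, by adjusted p (1 such gene is not reported here). VPS18, VPS33A, VPS39, VPS41, MTOR, UFD1, NPLOC4, LAMP1, CALCOCO2, HSP90AA1, BAG3, SYNPO2 and the gene pairs set in ratios were named after their values were seen. The labels call the libraries of a group biological replicates. The chi-square per degree of freedom between them was 23.3 to 114, where sampling noise alone gives about 1. This value cannot tell distinct samples from separate preparations of the same pool. Depth adds relatively more error at low counts, as for ACP5 with 68 to 173 counts per library. Alternatives were other scalings, filters and tools (DESeq2 1.42.0, limma-voom 3.58.1), a replicate block and each library left out.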

Additional observations from a re-analysis of the deposited data

How the results depend on the processing

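The members' log2 changes kept their direction in every alternative for the 7 that passed. Beyond the values given with each gene, members called lower numbered 1 with upper-quartile scaling, the stricter filter (1 CPM or more throughout 1 group and 5 CPM on average) or DESeq2, and the gene was VCP each time. The members' median log2 change was 0.00877 with upper-quartile scaling, 0.00591 with the stricter filter, 0.0665 with limma-voom, and 0.0568 to 0.105 with single libraries left out. The median over all genes tested was −0.0488 with upper-quartile scaling, −0.000667 with the stricter filter and −0.0127 with limma-voom. With single libraries left out it was −0.0110 to 0.00212. Higher members ranged from 2 to 7 with single libraries left out, and over all genes 145 to 2027 were called higher and 154 to 1672 lower, against 1602 and 1490.

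With single libraries left out, higher genes ranged from 0 to 3 in the list of autophagosome formation, from 1 to 5 in selective autophagy, 1 to 9 among VCP cofactors, 0 to 6 in fusion, 0 to 2 among lysosomal genes, 0 to 6 in nutrient signalling, 0 to 3 among transcription factors and 2 to 6 in the heat response reference list. Lower genes ranged from 0 to 1 in each of the formation, selective autophagy, VCP cofactor, transcription factor and heat reference lists, and from 0 to 5 in each of the fusion, lysosome and nutrient signalling lists. With upper-quartile scaling 2 formation genes and 3 selective autophagy genes were higher, and with the stricter filter 4 and 4. Each of these settings called 1 selective autophagy gene lower. DESeq2 called 4 lysosomal genes higher and limma-voom 1. The cause of these differences was not tested.

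With the replicate block 5 members were higher, and 3 formation genes, 5 VCP cofactors, 0 lower transcription factors and 0 lower heat reference genes were called. Deviations from the group means of same-numbered libraries correlated at −0.05, 0.25 and 0.07 across genes. For libraries with different numbers the correlations ran from −0.27 to 0.21. With 3 libraries per group, these values cannot decide whether the numbers pair the libraries.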
